A study of Mus musculus with 12 samples.

Results

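The genes described here build the contacts between epithelial cells and set their apical and basal sides. They are 39 genes of mouse skin: 14 claudins, 7 other tight junction genes, 10 genes of the adherens junction and 8 polarity genes. They were taken by symbol as rows of a count table of 52636 genes, and all 39 had a row. Of these, 36 held enough counts to be tested, among 18822 genes tested in all, and the other 3, Cldn2, Cldn6 and Cldn9, lay close to 0 in every library.

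Skin of C57BL/6 mice aged 3 months was sequenced in 4 groups of 3 mice after 14 days. WT mice had intact Cdc42, and in KO mice a floxed Cdc42 was deleted by Cre recombinase under a keratin 5 promoter. Mice called WT and KO had the vehicle, saline thickened with hydroxypropyl methylcellulose, put on the shaved back. Mice called KO+ZnO NPs or WT+ZnO NPs had zinc oxide nanoparticles (ZnO NPs) in that vehicle. The keratin 5 promoter acts in basal keratinocytes and the cells that descend from them, among them those of the hair follicle, so that dermal cells, vessels, fat, muscle and immune cells of the KO skin keep the gene. Each library is a separate sample by its labels.

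Tight junctions seal the space between neighbouring epithelial cells. Claudins form their strands and decide which ions and solutes pass, occludin and the tricellulin family share the strands, and ZO proteins and cingulin tie them to actin. Adherens junctions hold cells together through cadherins, which bind catenins inside the cell, and through nectins, which bind afadin. Cdc42 is the small GTPase that binds PAR6 and releases the activity of atypical protein kinase C in the PAR complex, and this complex places junctions at the apical side of epithelial cells. In epidermis the tight junction lies in the granular layer, E-cadherin (Cdh1) is found in all living layers, and P-cadherin (Cdh3) is kept to the basal layer and the growing hair follicle.

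All levels below are in CPM, counts scaled to a common library size with edgeR's TMM factors. Differences are log2 fold changes with their standard error from edgeR's quasi-likelihood test, with p adjusted by Benjamini and Hochberg over the 18822 genes, and a gene is called at an adjusted p below 0.05. Total counts ran from 21076320 to 28867802 per library. Cdc42 itself was measured at 606, 628 and 616 CPM in WT, 415, 464 and 439.8 in KO, 311, 350.1 and 317 in WT+ZnO NPs and 365, 453 and 314 in KO+ZnO NPs. Each KO library was under each WT library, without a call (log2 fold change -0.49, standard error 0.15, edgeR adjusted p = 0.0653), but the WT+ZnO NPs libraries lay lower still (log2 fold change -0.92, standard error 0.15, edgeR adjusted p = 0.000799 against WT). This transcript, measured in whole skin, does not bear out the label WT+ZnO NPs, and the reason for its low level there was not tested. These names stand below for the libraries that carry those labels. Transcripts of 4 Y-linked genes summed to 192 to 242 CPM in the 3 WT+ZnO NPs libraries, in KO replicate 1 and in KO+ZnO NPs replicate 1, and to between 0 and 0.0504 CPM in the other KO+ZnO NPs libraries, in the other KO libraries and in WT. The study's methods describe the KO mice as female, which the KO and KO+ZnO NPs libraries with Y-linked transcripts go against. Sex and ZnO NPs cannot be told apart within WT skin, and values with a sex term, or from the libraries without Y-linked transcripts, are given below.

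The levels of the 39 genes spanned several orders of magnitude. Divided by the summed length of a gene's exons, which allows genes to be compared, the WT order was led by the catenins, with Ctnnb1 at 82.2 ± 6.27 CPM per kb (SD, n = 3) and Ctnna1 at 46.1 ± 2.15. These did not overlap each other or the next gene. Cldn5 (36.2 ± 3.40), Cldn4 (30.7 ± 11.2), Cdh1 (30.5 ± 4.06) and Cldn1 (26.5 ± 5.76) followed, each overlapping its neighbour in this order. Cdh3 stood at rank 26 in WT with 2.99 ± 0.661 CPM per kb, Cldn8, Cldn10 and Cldn3 stood at ranks 31, 32 and 35, and Prkcz, at rank 34, held 0.815 ± 0.163. The lowest were Cldn7, Cldn9, Cldn2 and Cldn6, and Cldn6 had 1 count in 12 libraries.

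**Figure D1:**
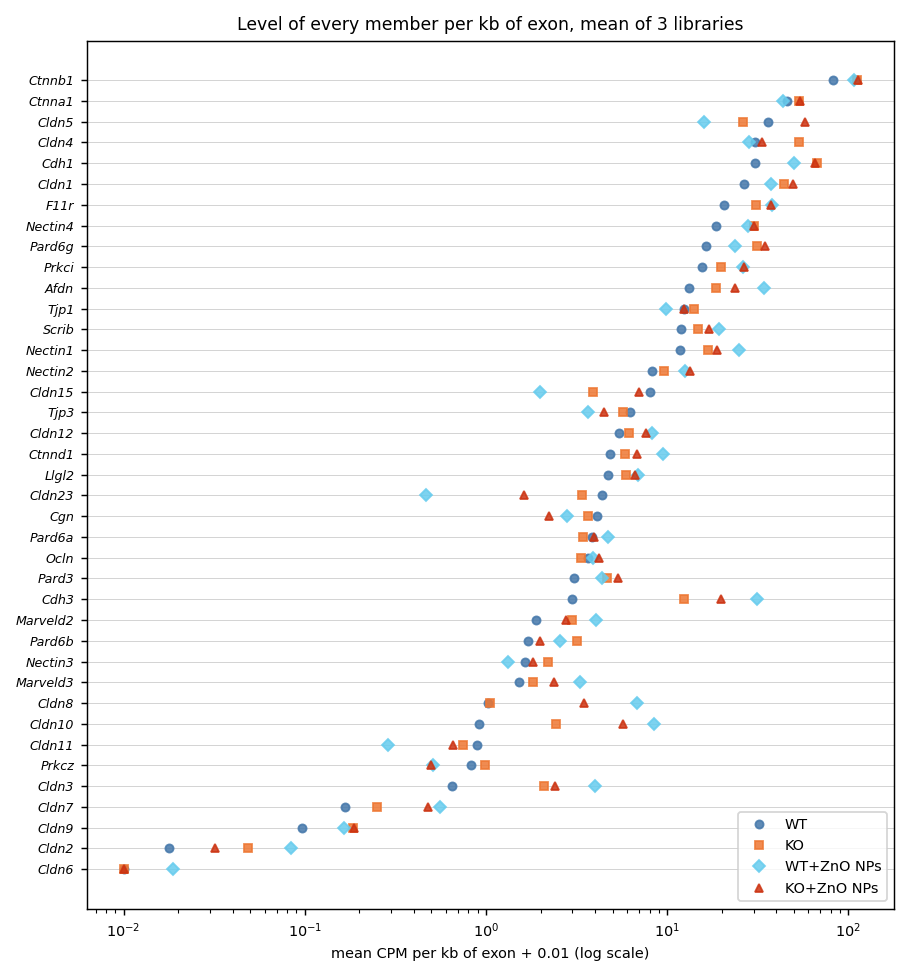
Mean level of each of the 39 genes in each group (3 libraries each), in CPM per kb of exon plus 0.01 on a log axis, ordered by the WT mean. Most genes hold their 4 group means close together. In the WT+ZnO NPs group, Cdh3, Cldn10, Cldn8 and Cldn3 are among those far to the right of WT. Cldn23, Cldn15, Cldn11 and Cldn5 are among those far to the left.

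KO skin differed from WT skin in few of these genes, all of them higher. Of the 36 tested, 4 were called higher (Cdh3, Cdh1, Cldn10 and Pard6g) and 0 lower, where 4.61% of all genes tested were called higher and 3.58% lower, and 12 members had an unadjusted p below 0.05. The median log2 fold change of the 36 was 0.34, against 0.01 over all genes tested. In WT+ZnO NPs against WT, 17 were called higher and 5 lower, where 20.8% of all genes were called higher and 22.1% lower, with a median of 0.58 over the members and 0.06 over all genes. The share of members called higher was above that of all genes and the share called lower below it, and with library size in place of TMM factors the split was 21 higher and 3 lower. Markers of other cell types differed in the same libraries. The summed level of 5 adipocyte markers was 4501 to 6458 CPM in WT and 637 to 1379 in WT+ZnO NPs, with 4 called lower. Of 7 immune markers, 6 were called lower there. Of 6 fibroblast markers, 2 were called lower and 1 higher, with sums of 7049 to 13902 CPM in WT and 7678 to 33420 in WT+ZnO NPs. Their part in the members' counts was not tested. In KO+ZnO NPs against KO, 2 were called higher (Cldn8 and Cldn10) and 1 lower (Prkcz), where 6.57% of all genes were called higher and 8.09% lower, and library size in place of TMM factors gave 1 and 1. These member shares were not above the background. Between the ZnO NP groups, 1 member, Cldn5, was called higher in KO+ZnO NPs and 0 lower (2.13% and 1.16% of all genes), and 7 members had an unadjusted p below 0.05. Library size in place of TMM factors gave 1 higher and 1 lower there, DESeq2 on all libraries called 3 members, and edgeR on these libraries alone called 0. The ZnO NP difference itself differed between the groups labelled KO and WT (interaction, KO+ZnO NPs over KO divided by WT+ZnO NPs over WT) in 6 members, 2 upward and 4 downward, where 5.08% of all genes were called upward and 3.59% downward. The medians of the members and of all genes were 0.19 and 0.01 in KO+ZnO NPs against KO, -0.00 and 0.04 between the ZnO NP groups, and -0.38 and 0.02 in the interaction. Comparisons that name the same group share its libraries, and the interaction uses all 12, so these counts are not independent of each other.

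**Figure D2:**
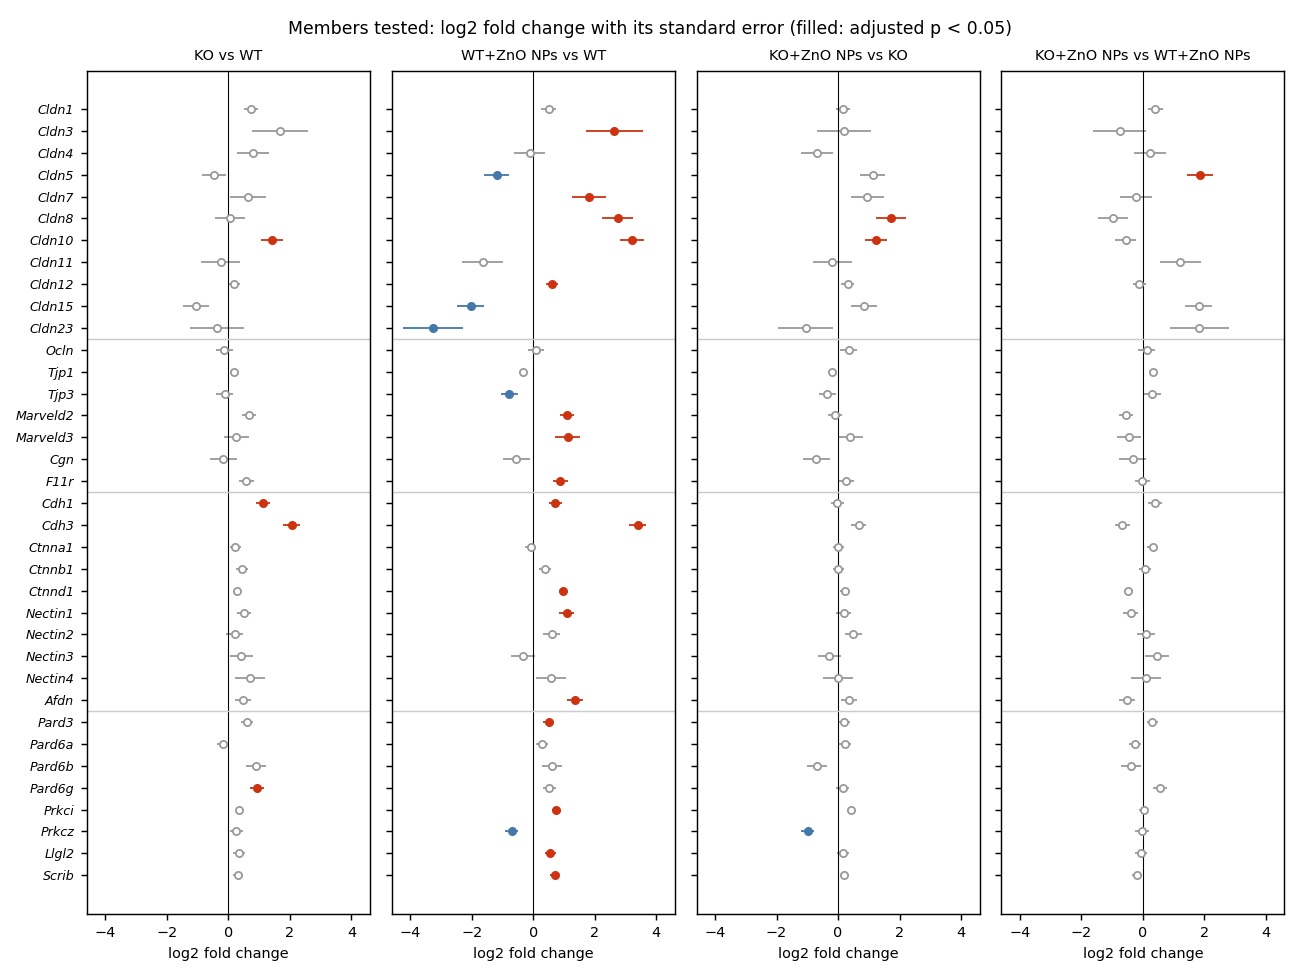
Log2 fold change (x axis, points) with its standard error (bars) for the 36 genes tested, in the 4 comparisons of groups of 3, grouped from top to bottom as claudins, other tight junction genes, adherens junction genes and polarity genes. Filled points passed an edgeR adjusted p of 0.05, red for higher and blue for lower, and the WT+ZnO NPs panel holds 22 of them against 4, 3 and 1 in the others.

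Calls were recomputed with the Y-linked transcripts in view. With a term for the Y-linked transcripts in the fit, 2 of the 4 calls of KO against WT were kept (Cdh3 at 1.91 and Cdh1 at 1.16 on the log2 scale), 5 of the 22 of WT+ZnO NPs against WT (Cdh3 at 3.01, Cldn10 at 2.94, Ctnnd1 at 0.91, Cldn15 at -2.54 and Cldn23 at -5.48), 2 of the 3 of KO+ZnO NPs against KO (Cldn8 at 1.79 and Prkcz at -0.99), 0 of 1 between the ZnO NP groups (Cldn5 at 1.29), and 0 of the 6 of the interaction. There the log2 fold changes with the sex term were -2.33 for Cdh3, 3.46 for Cldn15, -1.74 for Cldn10, -0.70 for Ctnnd1, 1.51 for Cldn5 and -0.82 for Marveld2, so that Cldn15 lay farther from 0 than without the term and the others nearer. Of the calls lost in WT+ZnO NPs against WT, the sex term took Cldn3 to 0.57 (edgeR adjusted p = 0.717), Cldn12 to 0.28 (edgeR adjusted p = 0.503), Llgl2 to 0.22 (edgeR adjusted p = 0.551) and Cldn5 to -0.44 (edgeR adjusted p = 0.575), and left the others at edgeR adjusted p values of 0.0577 to 0.311. Among those others, Cdh1 (0.79), Cldn7 (1.99), Scrib (0.71) and Tjp3 (-0.97) lay as far from 0 as without the term or farther. The rest lay nearer to 0 in the same direction, from 0.41 for Pard3 to 1.97 for Cldn8 and at -0.56 for Prkcz. In that comparison the term rests on the KO and KO+ZnO NPs libraries, since no WT library held Y-linked transcripts and all WT+ZnO NPs libraries did. Without the KO and KO+ZnO NPs libraries that held them, KO against WT compared libraries without Y-linked transcripts only, and there Cdh3 was called (1.85) and Cdh1 (1.16, edgeR adjusted p = 0.051), Cldn10 (1.45, edgeR adjusted p = 0.0756) and Pard6g (0.85, edgeR adjusted p = 0.0994) were not. In KO+ZnO NPs against KO, Prkcz was called there (-1.08), and Cldn8 (1.96, edgeR adjusted p = 0.0548) and Cldn10 (0.96, edgeR adjusted p = 0.16) were not.

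The cadherins stood out among the adherens junction genes. Cdh3 (chr8:106510891-106557297, plus strand, GRCm38), which encodes P-cadherin, was measured at 15.2, 9.79 and 14.3 CPM in WT, 69.4, 46.2 and 48.1 in KO, 98, 154 and 160.2 in WT+ZnO NPs and 94.5, 101 and 64.5 in KO+ZnO NPs. The WT libraries lay below all the others, and the WT+ZnO NPs libraries lay above all WT and KO libraries. The difference from WT was called in KO (log2 fold change 2.06, standard error 0.27, edgeR adjusted p = 0.00185) and in WT+ZnO NPs (log2 fold change 3.39, standard error 0.28, edgeR adjusted p = 2.7e-05), and both calls were kept under all 23 alternative settings. KO+ZnO NPs overlapped KO, with its lowest library at 64.5 CPM, against a highest KO library of 69.4, and was not called (log2 fold change 0.67, standard error 0.26, edgeR adjusted p = 0.099). The interaction was called (log2 fold change -2.73, standard error 0.37, edgeR adjusted p = 0.00466), with a 95% interval of -3.45 to -2.00, and was -2.33 with the sex term (edgeR adjusted p = 0.0516).

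Cdh1, the E-cadherin gene (chr8:106603351-106670246, plus strand, GRCm38) and Cdh3's neighbour on the chromosome, was measured at 151, 118 and 149 CPM in WT, 297, 387 and 235 in KO, 255, 192 and 243 in WT+ZnO NPs and 292, 377 and 235 in KO+ZnO NPs. Every library of the other groups lay above every WT library. KO was called higher (log2 fold change 1.14, standard error 0.22, edgeR adjusted p = 0.0149). With WT replicate 2 left out the call was lost (log2 fold change 1.03). WT+ZnO NPs was called higher too (log2 fold change 0.72, standard error 0.22, edgeR adjusted p = 0.0237). Its call did not hold when any 1 of WT replicates 2 and 3 and WT+ZnO NPs replicates 1 and 3 was left out (log2 fold change 0.61 to 0.77). KO+ZnO NPs did not differ from KO beyond the spread (log2 fold change -0.02, standard error 0.22, edgeR adjusted p = 0.953), with a 95% interval of -0.46 to 0.41. The makeup of the pair differed between groups: per kb of exon, P-cadherin transcript was 0.0866 to 0.105 of E-cadherin transcript in WT libraries, 0.124 to 0.244 in KO, 0.401 to 0.838 in WT+ZnO NPs and 0.279 to 0.338 in KO+ZnO NPs. The 4 ranges did not overlap. The ratio was chosen after its values were seen and was not tested.

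Hair follicle transcripts were, like Cdh3, higher than in WT in the other 3 groups, and keratinocyte transcripts were higher in KO but overlapped WT in WT+ZnO NPs. The summed level of 13 marker genes of hair matrix, inner root sheath and shaft, among them the inner root sheath keratins Krt25 and Krt71, was 4.598 to 9.77 CPM in WT, 27.8 to 8567 in KO, 1217 to 5416 in WT+ZnO NPs and 256 to 6677 in KO+ZnO NPs, and 9 of the 13 were called higher in KO than in WT, 11 in WT+ZnO NPs than in WT, and 8 lower in the interaction. KO replicate 2 held almost none of the defining keratins (Krt25 at 0.121 CPM and Krt71 at 0.201), and its Cdh3 level, 46.2 CPM, was the lowest of the KO libraries and above all WT libraries. The sum of 10 keratinocyte markers was 8643 to 11917 CPM in WT, 15373 to 27269 in KO, 8779 to 13306 in WT+ZnO NPs and 13134 to 21159.6 in KO+ZnO NPs, with 2 of the 10 called higher in KO, and 3 called higher and 2 lower in WT+ZnO NPs. Taken as a share of Krt14, the basal keratin, Cdh3 was 0.423 to 0.557% in WT, 0.722 to 1.37% in KO, 2.16 to 7.24% in WT+ZnO NPs and 1.19 to 1.88% in KO+ZnO NPs. The same share of Cdh1 was 4.56 to 5.55% in WT, 5.87 to 6.05% in KO, 5.61 to 11% in WT+ZnO NPs and 4.34 to 6.18% in KO+ZnO NPs. Melanocyte markers, 6 genes, summed to 53.9 to 70.4 CPM in WT and 80.5 to 232 in KO. Their sums were 395 to 1184 in WT+ZnO NPs and 305 to 484 in KO+ZnO NPs. Of the 6, 2 were called higher in KO, 5 higher and 1 lower in WT+ZnO NPs, and 3 downward in the interaction. In whole skin, more cells of a type and more RNA per cell cannot be told apart, and the part of these cell types in the results was not tested beyond these values.

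**Figure D3:**
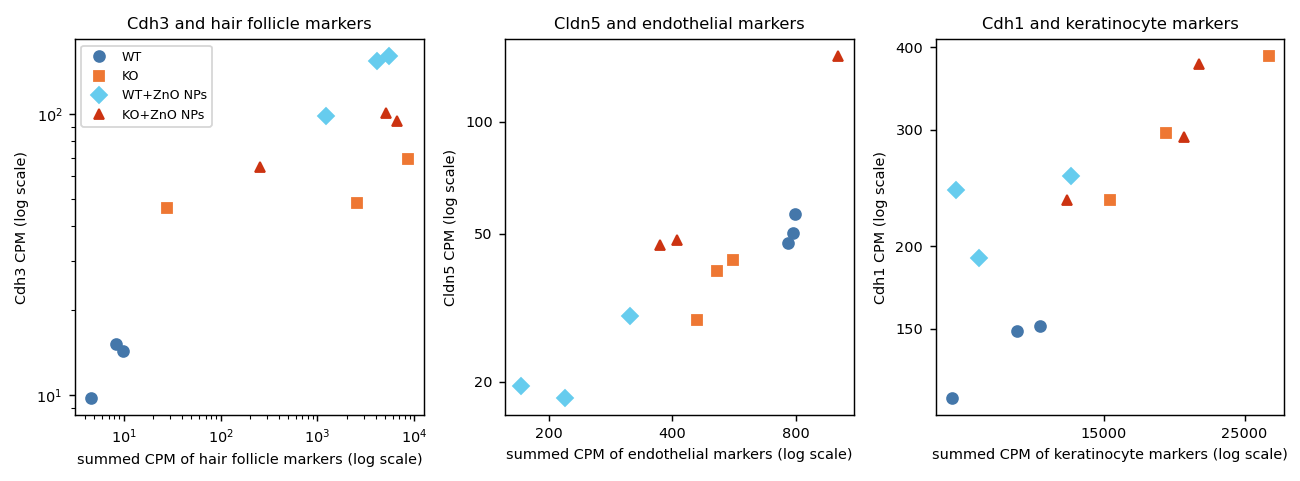
Levels in the 12 libraries in CPM on log axes: Cdh3 against the sum of hair follicle markers, Cldn5 against the sum of endothelial markers, and Cdh1 against the sum of keratinocyte markers, 1 point per library. KO replicate 2, at 27.8 CPM of hair follicle markers, holds 46.2 CPM of Cdh3, and KO+ZnO NPs replicate 2 has both the highest Cldn5 level and the highest endothelial sum.

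Of the catenin genes, Ctnnd1 was called and Ctnnb1 and Ctnna1 were not. Ctnnb1, whose product β-catenin links cadherins to α-catenin and also acts in Wnt signalling, was measured at 421, 397 and 462 CPM in WT, 634, 533 and 575 in KO, 476, 596 and 605 in WT+ZnO NPs and 585, 729 and 440.1 in KO+ZnO NPs. WT libraries lay below all KO and all WT+ZnO NPs libraries, but no comparison was called, and KO against WT gave a log2 fold change of 0.44 with a standard error of 0.19 (edgeR adjusted p = 0.168). Of its exon bases 15.1% overlap another gene. Ctnna1, the α-catenin gene, was not called in any comparison, with log2 fold changes from -0.09 to 0.32. Ctnnd1, the gene of p120-catenin, which holds cadherins at the membrane, was measured at 35, 33.4 and 37.9 CPM in WT, 45.2, 44.9 and 38.9 in KO, 64.4, 71.7 and 71.6 in WT+ZnO NPs and 49.8, 59.9 and 40.2 in KO+ZnO NPs. The WT+ZnO NPs libraries lay above all other libraries, with a called difference from WT (log2 fold change 0.97, standard error 0.14, edgeR adjusted p = 0.000493) that was kept under all 23 alternatives. Its interaction was called narrowly (log2 fold change -0.75, standard error 0.20, edgeR adjusted p = 0.045), and was not with the replicate number as a block (-0.75, edgeR adjusted p = 0.0589). Leaving out any single library other than KO+ZnO NPs replicates 2 and 3 ended that call (log2 fold change -0.81 to -0.70). Of the Ctnnd1 exon bases, 61.2% overlap the annotated gene Gm28635, and since no source states a strand setting its level is uncertain.

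Among the nectins and afadin, Afdn and Nectin1 were called, both in WT+ZnO NPs against WT alone. Afadin ties nectins to actin, and Afdn was measured at 147, 125 and 134 CPM in WT, 261, 144 and 164 in KO, 345, 434 and 265 in WT+ZnO NPs and 279, 265 and 178 in KO+ZnO NPs. The WT+ZnO NPs libraries lay above all WT and KO libraries and overlapped those of KO+ZnO NPs. Their difference from WT was called (log2 fold change 1.36, standard error 0.26, edgeR adjusted p = 0.00223). The other comparisons of Afdn were not called, and the sex term left 0.81 with an edgeR adjusted p of 0.0933. Nectin1 ran from 55.8 to 82.6 CPM in WT and from 117 to 158 in WT+ZnO NPs (log2 fold change 1.08, standard error 0.24, edgeR adjusted p = 0.00487), with no overlap. Nectin2, Nectin3 and Nectin4 were not called in any comparison, with log2 fold changes between -0.60 and 0.71, and their libraries of a group were spread widely, with Nectin4 at 28.7 to 157 CPM in KO+ZnO NPs.

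Claudins were called in both directions. In WT+ZnO NPs against WT, 5 of the 11 tested were called higher (Cldn3, Cldn7, Cldn8, Cldn10 and Cldn12) and 3 lower (Cldn5, Cldn15 and Cldn23), which is 45.5% and 27.3% of them against 20.8% and 22.1% of all genes, so that the share called lower was near the background. In KO against WT 1 was called. Cldn1, the claudin on which the epidermal water barrier depends, was measured at 150.03, 96.8 and 138 CPM in WT, 247, 212 and 184 in KO, 184, 163 and 198 in WT+ZnO NPs and 281, 280.2 and 161 in KO+ZnO NPs. Every library of the other groups lay above every WT library, but no comparison was called, the nearest being KO against WT (log2 fold change 0.74, standard error 0.23, edgeR adjusted p = 0.0756, 95% interval 0.28 to 1.20). As a share of Krt14, Cldn1 was 4.18 to 5.5% in WT, 3.31 to 4.89% in KO, 4.05 to 8.94% in WT+ZnO NPs and 2.96 to 5.59% in KO+ZnO NPs, with overlapping ranges. Cldn4, a claudin of the upper epidermal layers, varied widely within groups, at 42.5 to 79.2 CPM in WT, 61.2 to 131 in KO, 35.6 to 62.4 in WT+ZnO NPs and 18.03 to 97.98 in KO+ZnO NPs, and was not called.

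The sequences upstream of Cldn10, Cldn5 and Cldn15 are shown because these are the 3 claudins whose interaction was called, Cldn10 downward and the others upward. They are RefSeq promoter windows on GRCm38.p6, 250 bases before to 50 bases after a transcript start, written 5′ to 3′ on the gene's strand, with matches to any of 4 motifs in capitals. Windows were found for 28 of the 39 genes, 41 windows in all, and Cdh3, Cdh1, Cldn8 and Cldn23 are among those without one. The motifs were the grainyhead site AACCNGTT, the E2 box CAGGTG bound by ZEB and SNAIL factors, the AP-1 site TGANTCA and the TCF/LEF site CTTTGAT, each on both strands, and no match in the windows below overlaps another.
Cldn10, first start, chr14:118787621-118787920, plus strand: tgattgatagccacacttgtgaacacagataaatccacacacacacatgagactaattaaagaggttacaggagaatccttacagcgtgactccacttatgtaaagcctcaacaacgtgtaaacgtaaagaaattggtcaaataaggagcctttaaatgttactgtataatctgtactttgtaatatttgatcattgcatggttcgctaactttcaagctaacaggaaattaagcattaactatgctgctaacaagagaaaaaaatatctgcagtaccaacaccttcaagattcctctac
Cldn10, second start, chr14:118854700-118854999, plus strand: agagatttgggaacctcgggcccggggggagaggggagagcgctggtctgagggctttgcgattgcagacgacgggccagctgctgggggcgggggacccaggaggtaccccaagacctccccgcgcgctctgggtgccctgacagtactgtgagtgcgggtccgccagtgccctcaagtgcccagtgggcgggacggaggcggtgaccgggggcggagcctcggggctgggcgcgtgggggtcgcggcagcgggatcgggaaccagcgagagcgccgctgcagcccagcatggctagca
Cldn5, chr16:18776597-18776896, plus strand: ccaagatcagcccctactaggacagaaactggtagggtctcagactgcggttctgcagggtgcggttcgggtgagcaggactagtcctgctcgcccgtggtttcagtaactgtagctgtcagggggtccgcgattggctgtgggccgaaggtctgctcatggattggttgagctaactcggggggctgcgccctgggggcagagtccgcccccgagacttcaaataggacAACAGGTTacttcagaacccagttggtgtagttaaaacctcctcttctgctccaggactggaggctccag
Cldn15, chr5:136967619-136967918, plus strand: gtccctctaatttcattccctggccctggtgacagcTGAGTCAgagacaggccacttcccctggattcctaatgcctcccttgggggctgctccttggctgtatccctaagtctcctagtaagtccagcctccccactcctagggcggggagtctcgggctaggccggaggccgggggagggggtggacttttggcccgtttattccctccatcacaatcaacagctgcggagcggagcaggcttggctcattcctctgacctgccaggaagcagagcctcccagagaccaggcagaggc
The first Cldn10 window was 36% G and C and the second 72%, and neither held a match. Cldn5 held a grainyhead match at position -20 from the start, and Cldn15 an AP-1 match at -214. Grainyhead matches stood in 2 of the 41 windows, where 2.09% of the 32851 promoter windows of the table had one, and the other was in Cgn. E2 boxes stood in 17 of 41 against 20.2% of all windows, AP-1 sites in 3 of 41 (Cldn4, Cldn15 and F11r) against 7.81%, and TCF/LEF sites in 0 of 41 against 3.73%. Several genes have more than 1 window and some of these overlap, as for Ocln and Marveld2, so the windows are not independent and a box can be counted more than once. A match is a run of letters and not evidence of binding.

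Cldn10, whose product forms ion-selective pores and is found in glands and kidney, was called higher in 3 comparisons. It was measured at 3.27, 1.51 and 2.29 CPM in WT, 5.95, 4.3 and 8.63 in KO, 16.6, 26.5 and 22.5 in WT+ZnO NPs and 19.3, 14.9 and 10.3 in KO+ZnO NPs. The groups followed each other with no overlap from WT to KO, and from KO to both ZnO NP groups, while the ZnO NP groups overlapped. Its calls were higher in KO (log2 fold change 1.42, standard error 0.36, edgeR adjusted p = 0.0391), in WT+ZnO NPs (log2 fold change 3.21, standard error 0.38, edgeR adjusted p = 0.000133) and in KO+ZnO NPs against KO (log2 fold change 1.24, standard error 0.35, edgeR adjusted p = 0.0407), and the interaction was called downward (log2 fold change -1.98, standard error 0.50, edgeR adjusted p = 0.0362). In KO against WT, the call was lost when any 1 of WT replicates 2 and 3, KO replicates 1 and 3 and WT+ZnO NPs replicate 3 was left out (log2 fold change 1.12 to 1.45). In KO+ZnO NPs against KO, the call was lost when any 1 of WT replicate 3, KO replicates 1 and 2, WT+ZnO NPs replicate 3 and KO+ZnO NPs replicates 1 and 2 was left out (log2 fold change 1.00 to 1.25). In the interaction, the call was lost when any 1 of WT replicates 2 and 3, KO replicates 1 and 3, WT+ZnO NPs replicates 2 and 3 and KO+ZnO NPs replicates 2 and 3 was left out (log2 fold change -2.01 to -1.68). The call in WT+ZnO NPs was kept under all 23 alternatives. With the replicate number as a block, the log2 fold change was 1.43 in KO against WT (edgeR adjusted p = 0.0586), 1.24 in KO+ZnO NPs against KO (edgeR adjusted p = 0.0578) and -2.02 in the interaction (edgeR adjusted p = 0.0529), and none of the 3 was called. As a share of the claudin transcripts per kb, Cldn10 was 0.563 to 0.921% in WT, 1.16 to 2.8% in KO, 6.44 to 8.41% in WT+ZnO NPs and 2.51 to 4.1% in KO+ZnO NPs. Its level in KO replicate 2, the library almost without hair follicle keratins, was 4.30 CPM, above all WT libraries and below the other KO libraries.

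Cldn8, a barrier-forming claudin, was measured at 2.6, 1.16 and 3.44 CPM in WT, 3.74, 1.37 and 2.29 in KO, 13.3, 15.5 and 19.4 in WT+ZnO NPs and 10.3, 3.98 and 10.2 in KO+ZnO NPs. KO overlapped WT, and the 2 ZnO NP groups lay above their own controls, with WT+ZnO NPs above KO+ZnO NPs. It was called higher in WT+ZnO NPs (log2 fold change 2.74, standard error 0.51, edgeR adjusted p = 0.00178) and in KO+ZnO NPs against KO (log2 fold change 1.73, standard error 0.49, edgeR adjusted p = 0.0413). The result missed the threshold when any 1 of WT replicate 1, KO replicates 2 and 3, WT+ZnO NPs replicates 2 and 3 and KO+ZnO NPs replicates 1 and 3 was left out (log2 fold change 1.45 to 1.73). The interaction was not called (log2 fold change -1.02, standard error 0.68, edgeR adjusted p = 0.363), with a 95% interval of -2.35 to 0.32.

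Cldn3 and Cldn7 were scarce. Cldn3, a barrier-forming claudin, was measured at 0.797, 0.948 and 0.68 CPM in WT, 6.42, 0.201 and 1.28 in KO, 4.52, 4.57 and 6.05 in WT+ZnO NPs and 4.19, 3.88 and 0.958 in KO+ZnO NPs, and the KO libraries ranged from 5 to 151 counts. The call was higher in WT+ZnO NPs (log2 fold change 2.63, standard error 0.93, edgeR adjusted p = 0.041). That call was lost when any 1 of WT replicates 1, 2 and 3 and WT+ZnO NPs replicates 1, 2 and 3 was left out (log2 fold change 2.48 to 2.76). KO replicate 1 and KO replicate 2, the libraries with the most and the fewest hair follicle transcripts among KO, also held the most and the least Cldn3. Cldn7 was measured at 0.504, 0.0702 and 0.34 CPM in WT, 0.298, 0.442 and 0.66 in KO, 0.88, 1.05 and 1.27 in WT+ZnO NPs and 1.05, 1.11 and 0.566 in KO+ZnO NPs, with 2 to 32 counts per library, and was called higher in WT+ZnO NPs (log2 fold change 1.81, standard error 0.56, edgeR adjusted p = 0.0239). With any 1 of WT replicates 2 and 3 and WT+ZnO NPs replicate 3 left out the call was lost (log2 fold change 1.32 to 1.90). Cldn12, from 21.1 to 24.2 CPM in WT and 30.5 to 38.6 in WT+ZnO NPs, was called there too (log2 fold change 0.61, standard error 0.21, edgeR adjusted p = 0.0338). Its call did not hold when any 1 of WT replicates 1, 2 and 3 and WT+ZnO NPs replicates 1 and 2 was left out (log2 fold change 0.53 to 0.65).

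Cldn23, a claudin of differentiated epithelium, was measured at 10.8, 7.69 and 5.78 CPM in WT, 6.04, 8.92 and 3.74 in KO, 0.84, 1.01 and 0.672 in WT+ZnO NPs and 7.94, 0.806 and 0.218 in KO+ZnO NPs. All WT+ZnO NPs libraries and KO+ZnO NPs replicates 2 and 3 lay near or below 1 CPM, while KO+ZnO NPs replicate 1 was as high as WT. The lower level in WT+ZnO NPs was called (log2 fold change -3.27, standard error 0.98, edgeR adjusted p = 0.021). The result missed the threshold when any 1 of WT replicate 1 and WT+ZnO NPs replicates 1, 2 and 3 was left out (log2 fold change -3.41 to -3.01). Of the keratinocyte markers, the suprabasal keratins Krt10 and Krt1 were called lower in WT+ZnO NPs and Krt5, Sfn and Trp63 higher. Krt10 was at 3101, 1838 and 2229 CPM in WT, 2826, 5195 and 2937 in KO, 532, 486 and 428 in WT+ZnO NPs and 3478, 1837 and 683 in KO+ZnO NPs. Krt1 was at 1559, 996 and 1199 CPM in WT, 2528, 6613 and 3124 in KO, 306, 324 and 236 in WT+ZnO NPs and 2639, 2420.1 and 585 in KO+ZnO NPs. Both were low with Cldn23 in WT+ZnO NPs. In KO+ZnO NPs replicate 2, which held little Cldn23, Krt1 lay above all WT libraries and Krt10 just below them. The part of differentiated keratinocytes in this result was not tested.

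Cldn15, a pore-forming claudin best known from intestine, was measured at 15.8, 22.7 and 12.9 CPM in WT, 12.6, 4.94 and 7.26 in KO, 3.76, 4.61 and 4.19 in WT+ZnO NPs and 14, 23.2 and 7.14 in KO+ZnO NPs. The WT+ZnO NPs libraries were the lowest of all, and KO+ZnO NPs, from 7.14 to 23.2 CPM, overlapped both controls. The fall in WT+ZnO NPs (log2 fold change -2.03, standard error 0.44, edgeR adjusted p = 0.00443) was called under all 23 alternatives. The interaction was called upward (log2 fold change 2.87, standard error 0.62, edgeR adjusted p = 0.0228), while KO+ZnO NPs against KO was positive without a call (log2 fold change 0.84, standard error 0.43, edgeR adjusted p = 0.202). In the interaction, the call was lost when any 1 of WT replicate 2, KO replicate 3 and WT+ZnO NPs replicate 3 was left out (log2 fold change 2.62 to 2.87).

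Cldn5 is the claudin of blood vessel endothelium. It was measured at 56.6, 50.2 and 47.1 CPM in WT, 29.3, 39.7 and 42.4 in KO, 19.4, 30.1 and 18.1 in WT+ZnO NPs and 48.1, 149.7 and 46.6 in KO+ZnO NPs. KO+ZnO NPs lay above WT+ZnO NPs (log2 fold change 1.85, standard error 0.42, edgeR adjusted p = 0.0444), the 1 member called between the ZnO NP groups, and above KO without a call (log2 fold change 1.13, standard error 0.41, edgeR adjusted p = 0.0821). WT+ZnO NPs lay below WT (log2 fold change -1.19, standard error 0.41, edgeR adjusted p = 0.0371). With any 1 of WT replicates 1, 2 and 3, KO replicate 2 and WT+ZnO NPs replicates 1 and 3 left out the call was lost (log2 fold change -1.25 to -1.05). The interaction was called upward (log2 fold change 2.32, standard error 0.58, edgeR adjusted p = 0.0347). Its call did not hold when any 1 of WT replicates 1, 2 and 3, KO replicates 1, 2 and 3 and WT+ZnO NPs replicates 1 and 3 was left out (log2 fold change 2.18 to 2.43). Without KO+ZnO NPs replicate 2 it was called at a smaller value of 1.513. The call between the ZnO NP groups was kept in 8 of 23 alternatives. Leaving out any single library other than KO+ZnO NPs replicate 3 ended that call (log2 fold change 1.06 to 2.13). KO+ZnO NPs replicate 2, with 149.7 CPM, decided much of its size: without that library the log2 fold change was 1.06.

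Endothelial markers were, like Cldn5, lower in WT+ZnO NPs than in WT, but parted from it in KO+ZnO NPs against KO. The sum of 8 of them was 766 to 798 CPM in WT, 458 to 562 in KO, 171 to 315 in WT+ZnO NPs and 373 to 1016 in KO+ZnO NPs, highest in KO+ZnO NPs replicate 2. KO+ZnO NPs replicates 1 and 3 held sums of 409 and 373 CPM, below all KO libraries. Their Cldn5 levels, 48.1 and 46.6 CPM, lay above all KO libraries. All 8 were called lower in WT+ZnO NPs than in WT, 2 were called higher in KO+ZnO NPs than in WT+ZnO NPs, and 4 upward in the interaction. Set against the vessel marker Pecam1, Cldn5 was 22.9, 20.5 and 20.9% in WT, 21.5, 23.1 and 24.9% in KO, 51, 34.4 and 35.2% in WT+ZnO NPs and 34.5, 46.3 and 43.9% in KO+ZnO NPs. By this share the libraries labelled WT+ZnO NPs and KO+ZnO NPs lay above both controls and overlapped each other, whereas the level itself was lowest in WT+ZnO NPs, and KO+ZnO NPs overlapped WT apart from its replicate 2. Set against Cdh5, the vascular cadherin gene, the share was 39.3 to 47.8% in WT, 38.1 to 58.8% in KO, 50.4 to 81.8% in WT+ZnO NPs and 68.1 to 112% in KO+ZnO NPs, with more overlap. Both shares were chosen after their values were seen and were not tested, and the part of vessel cells in the Cldn5 calls was not tested.

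The remaining claudins gave no call. Cldn11, known from myelin and testis, held 5 to 48 counts per library and gave a log2 fold change of -1.65 (standard error 0.66, edgeR adjusted p = 0.0664) in WT+ZnO NPs against WT. Cldn2 held 0 to 11 counts, Cldn9 1 to 10 and Cldn6 0 or 1, too few for a test.

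**Figure D4:**
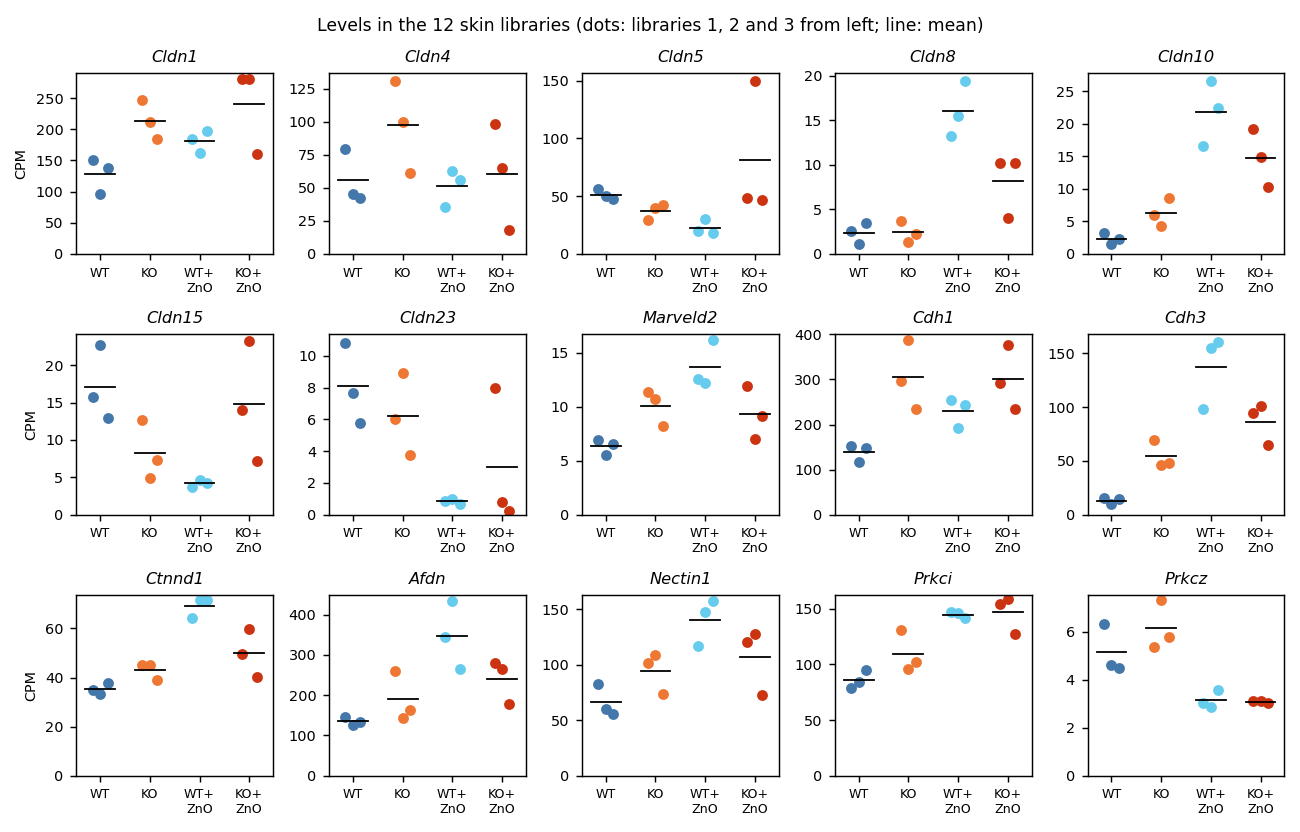
CPM of 15 members in each of the 12 libraries, 1 dot per library and a line at the mean of each group of 3, each panel with its own axis from 0. Cdh3, Cldn10 and Cldn8 stand highest in WT+ZnO NPs, Cldn15 and Cldn23 lowest there, and the single KO+ZnO NPs library at 149.7 CPM lifts the Cldn5 mean.

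Ocln, Tjp1 and Cgn were not called in any comparison, while Marveld2, Marveld3 and F11r were called higher and Tjp3 lower in WT+ZnO NPs. Ocln, the occludin gene, was measured at 19.98, 12 and 14.4 CPM in WT, 18.5, 12.4 and 11.3 in KO, 14.4, 16.2 and 18.6 in WT+ZnO NPs and 23.9, 15 and 14.5 in KO+ZnO NPs, with groups that overlapped in all comparisons and no call. Tjp1, the gene of ZO-1, was measured at 97.1, 101 and 90.9 CPM in WT, 118, 103 and 107 in KO, 65, 83.4 and 81.8 in WT+ZnO NPs and 106, 100.1 and 82.7 in KO+ZnO NPs. The WT+ZnO NPs libraries lay below all WT libraries, and the difference was not called (log2 fold change -0.33, standard error 0.13, edgeR adjusted p = 0.064), nor was that of KO (log2 fold change 0.19, standard error 0.13, edgeR adjusted p = 0.409), whose 95% interval was -0.07 to 0.44. Tjp3, the gene of ZO-3, was called lower in WT+ZnO NPs, at 11.2 to 15.8 CPM against 19.3 to 27.9 in WT (log2 fold change -0.78, standard error 0.28, edgeR adjusted p = 0.0421). That call was lost when any 1 of WT replicates 1, 2 and 3, WT+ZnO NPs replicates 2 and 3 and KO+ZnO NPs replicate 2 was left out (log2 fold change -0.90 to -0.62). Library size in place of TMM factors ended it too. Cgn, the cingulin gene, which shares 17.2% of its 50-base stretches with the gene BC021767, was not called.

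Marveld2, the gene of tricellulin, which seals the points where 3 cells meet, was measured at 6.92, 5.55 and 6.5 CPM in WT, 11.4, 10.7 and 8.23 in KO, 12.6, 12.2 and 16.2 in WT+ZnO NPs and 12, 7.005 and 9.1 in KO+ZnO NPs. All other libraries lay above all WT libraries, and WT+ZnO NPs above all KO and KO+ZnO NPs libraries. Against WT, WT+ZnO NPs was called higher (log2 fold change 1.11, standard error 0.23, edgeR adjusted p = 0.0033), and its interaction was called downward (log2 fold change -1.22, standard error 0.32, edgeR adjusted p = 0.0428). Leaving out any single library other than KO+ZnO NPs replicate 1 ended that call (log2 fold change -1.35 to -1.07). Marveld3, of the same family, was called higher in WT+ZnO NPs (log2 fold change 1.12, standard error 0.40, edgeR adjusted p = 0.0444). Its call did not hold when any 1 of WT replicates 1, 2 and 3, KO replicates 1 and 3, WT+ZnO NPs replicates 1 and 3 and KO+ZnO NPs replicate 1 was left out (log2 fold change 0.93 to 1.31). F11r, the gene of JAM-A, an immunoglobulin-like adhesion molecule that recruits PAR3, ran from 51.5 to 58.7 CPM in WT and from 91.0 to 109 in WT+ZnO NPs (log2 fold change 0.88, standard error 0.24, edgeR adjusted p = 0.0149). The result missed the threshold when WT replicate 3 was left out (log2 fold change 0.83).

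The PAR complex is the direct partner of Cdc42, and among its 6 genes Pard6g, Pard3, Prkci and Prkcz were called in at least 1 comparison. Pard6g, a PAR6 gene, was measured at 53.9, 51.4 and 50.2 CPM in WT, 109, 105 and 82.1 in KO, 70.4, 79.95 and 72.9 in WT+ZnO NPs and 109, 147 and 70.4 in KO+ZnO NPs. The other groups lay above all WT libraries, and KO was called (log2 fold change 0.93, standard error 0.22, edgeR adjusted p = 0.0303). That call was lost when any 1 of WT replicates 1, 2 and 3 and KO replicates 1 and 2 was left out (log2 fold change 0.85 to 0.95). WT+ZnO NPs was not called (log2 fold change 0.52, standard error 0.22, edgeR adjusted p = 0.0747). Pard6g was also the most abundant of the PAR6 genes per kb, with 16.5 ± 0.599 CPM per kb in WT (SD, n = 3), against 3.84 ± 0.10 for Pard6a and 1.69 ± 0.422 for Pard6b, and these ranges did not overlap. Pard6a and Pard6b were not called in any comparison.

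Pard3, the gene of the scaffold PAR3, was measured at 46, 41.3 and 45.5 CPM in WT, 73, 75.4 and 53.5 in KO, 58.3, 65.6 and 64.8 in WT+ZnO NPs and 77.6, 95.8 and 58.4 in KO+ZnO NPs. It was called higher in WT+ZnO NPs (log2 fold change 0.51, standard error 0.18, edgeR adjusted p = 0.0426). With any 1 of WT replicates 1, 2 and 3, KO replicate 1, WT+ZnO NPs replicates 1, 2 and 3 and KO+ZnO NPs replicate 1 left out the call was lost (log2 fold change 0.45 to 0.56). In KO the larger log2 fold change missed the threshold (log2 fold change 0.60, standard error 0.18, edgeR adjusted p = 0.0641). Prkci, the gene of the atypical kinase aPKCι, was measured at 78.8, 84 and 95.2 CPM in WT, 131, 96.1 and 102 in KO, 147, 146 and 141 in WT+ZnO NPs and 154, 158 and 127 in KO+ZnO NPs. Both ZnO NP groups lay above WT, and WT+ZnO NPs was called (log2 fold change 0.75, standard error 0.14, edgeR adjusted p = 0.0018), while KO+ZnO NPs against KO was not (log2 fold change 0.42, standard error 0.14, edgeR adjusted p = 0.0639). The difference between these responses was not called (log2 fold change -0.33, standard error 0.20, edgeR adjusted p = 0.3).

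Prkcz, the gene of the other atypical kinase, aPKCζ, went the other way. It was measured at 6.34, 4.6 and 4.5 CPM in WT, 5.36, 7.31 and 5.77 in KO, 3.04, 2.88 and 3.56 in WT+ZnO NPs and 3.1, 3.12 and 3.05 in KO+ZnO NPs. Of its 50-base stretches 14.8% are shared with Prkcz2. All 6 ZnO NP libraries lay below all 6 control libraries. It was called lower in WT+ZnO NPs (log2 fold change -0.70, standard error 0.22, edgeR adjusted p = 0.0238). Its call did not hold when any 1 of WT replicate 1 and WT+ZnO NPs replicates 1 and 2 was left out (log2 fold change -0.68 to -0.53). The same call was lost with library size in place of TMM factors and with edgeR on the groups compared alone. It was also lost without a filter on low counts. KO+ZnO NPs was called lower than KO (log2 fold change -0.99, standard error 0.22, edgeR adjusted p = 0.0177). The result missed the threshold when KO replicate 2 was left out (log2 fold change -0.83). The interaction was not called (log2 fold change -0.29, standard error 0.31, edgeR adjusted p = 0.583), with a 95% interval of -0.89 to 0.31. The ratio of Prkci to Prkcz transcripts per kb was 14.1, 20.8 and 24 in WT, 27.7, 15 and 20.1 in KO, 55, 57.7 and 45.2 in WT+ZnO NPs and 56.6, 57.7 and 47.5 in KO+ZnO NPs. The libraries labelled WT+ZnO NPs and KO+ZnO NPs overlapped each other and lay clear of both controls. This ratio, too, was chosen after its values were seen and has no test.

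The basolateral polarity genes moved modestly. Llgl2, of the Lgl family, ran from 19.4 to 28.3 CPM in WT and from 31.6 to 35.3 in WT+ZnO NPs (log2 fold change 0.56, standard error 0.19, edgeR adjusted p = 0.036). That call was lost when any 1 of WT replicates 2 and 3 and WT+ZnO NPs replicates 1, 2 and 3 was left out (log2 fold change 0.46 to 0.60). Scrib, which works with Lgl against the PAR complex, ran from 68.1 to 85.3 CPM in WT and from 119 to 130 in WT+ZnO NPs (log2 fold change 0.70, standard error 0.15, edgeR adjusted p = 0.00408), and no left-out library ended that call. Neither was called in KO or in KO+ZnO NPs.

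A wider list of 79 junction and polarity genes was read in the same fit, of which 69 were tested. In KO against WT 10 were called higher and 1 lower, in WT+ZnO NPs against WT 24 and 13, in KO+ZnO NPs against KO 3 and 2, between the ZnO NP groups 1 and 0, and in the interaction 6 upward and 7 downward. As shares of the 69, these were 14.5% and 1.45%, 34.8% and 18.8%, 4.35% and 2.90%, 1.45% and 0%, and 8.70% and 10.1%. Against all genes, the shares in KO+ZnO NPs against KO and between the ZnO NP groups were below the background (6.57% and 8.09%, 2.13% and 1.16%). Of all genes, 4.61% and 3.58% were called in KO against WT and 20.8% and 22.1% in WT+ZnO NPs against WT. The list's share called lower was below these in both. In the interaction 5.08% of all genes were called upward and 3.59% downward. Among the tight junction genes, Ildr2, of the angulin family that recruits tricellulin, was called lower in KO (-1.74) and in WT+ZnO NPs (-3.10), Cxadr, the gene of the adhesion molecule CAR, was called higher in KO (0.96), and Cldn20 was called higher in WT+ZnO NPs (3.63). Cldn14 was also called there, from a WT level of 0 CPM to a mean of 0.849, and its means in KO and KO+ZnO NPs were 1.36 and 1.03. Arhgef2, whose product is held at tight junctions, was called lower in KO+ZnO NPs than in KO (-0.72). The interaction was called upward for Ildr2 (2.83) and for Jam2 and Esam, which act in endothelium (2.36 and 1.62), as it was for Cldn5.

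Among the other adherens junction genes, Cdh11, the cadherin of mesenchymal cells, was called higher in KO (2.36), with the actin linker Actn1 (0.90) and the LIM protein Ajuba (0.83). The 6 fibroblast markers summed to 7049 to 13902 CPM in WT and 23166 to 37282 in KO, with 0 called by edgeR and 4 at an unadjusted p below 0.05, and their part in the Cdh11 difference was not tested. In WT+ZnO NPs, Ajuba (1.39) and Ssx2ip, whose product binds afadin (1.36), were called higher and the endothelial Cdh5 lower (-1.64). In KO+ZnO NPs against KO, Plekha7 (0.60) and Ssx2ip (0.49) were called higher and Vcl, the vinculin gene, lower (-0.81). The interaction was called downward for Actn1 (-1.19) and Ajuba (-1.15) and upward for Cdh13 (1.01).

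Vangl2, a gene of planar cell polarity, was called higher in KO (1.55) and in WT+ZnO NPs (2.38) and downward in the interaction (-2.22), with group means of 16.7, 48.9, 86.6 and 54.4 CPM in WT, KO, WT+ZnO NPs and KO+ZnO NPs. Celsr1, which works with Vangl2 in aligning hair follicles, was called downward in the interaction (-1.40), and Fzd3 higher in WT+ZnO NPs (1.81). Patj, of the Crumbs complex, and the polarity kinase gene Mark1 were called higher in KO (1.08 and 1.07), and Lin7b higher in WT+ZnO NPs (1.98) and downward in the interaction (-2.47).

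A list of 12 regulators of junction genes held 2 genes called higher in KO, 5 higher and 4 lower in WT+ZnO NPs, 1 higher and 3 lower in KO+ZnO NPs against KO, 1 higher between the ZnO NP groups, and 1 upward and 1 downward in the interaction. Of all genes, 4.61% were called higher in KO, 20.8% higher and 22.1% lower in WT+ZnO NPs, and 6.57% and 8.09% in KO+ZnO NPs against KO. Between the ZnO NP groups 2.13% were called higher, and in the interaction 5.08% upward and 3.59% downward. A list of 12 is too short to read a share from. Grhl2, a grainyhead factor known to act on Cdh1 and claudin genes in epithelia, had group means of 14.9 CPM in WT, 35.4 in KO, 64.9 in WT+ZnO NPs and 52.7 in KO+ZnO NPs. Calls were higher in KO (log2 fold change 1.25, standard error 0.24, edgeR adjusted p = 0.0132) and in WT+ZnO NPs (log2 fold change 2.12, standard error 0.24, edgeR adjusted p = 0.000118), and downward in the interaction (-1.55). Trp63, the p63 gene of basal keratinocytes, was called higher in KO (1.17) and in WT+ZnO NPs (1.62). Zeb2, a repressor of Cdh1 that is also expressed in immune and mesenchymal cells, was called lower in WT+ZnO NPs (-2.06) and in KO+ZnO NPs against KO (-1.29), where Zeb1 was called lower too (-0.83) and the epithelial factor Ovol2 higher (1.95). Twist1, a mesenchymal factor, was called higher in KO+ZnO NPs than in WT+ZnO NPs (0.95) and upward in the interaction (0.98). Immune markers, whose 7 genes summed to 3193 to 4009 CPM in WT and 494 to 997 in WT+ZnO NPs, moved with Zeb2. They summed to 2902 to 4609 CPM in KO and 1063 to 1613 in KO+ZnO NPs, where 7 of the 7 were called lower than in KO, and their part in its fall was not tested.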

How the data were processed

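Skin RNA of 12 mice was sequenced, 3 in each of 4 groups taken from the sample labels. The authors deposited raw counts per gene and library. The study's methods name STAR, HTSeq and a NEBNext kit, the submitters' processing notes HISAT2 2.0.5 and mm10, and the labels a TruSeq kit. The strand setting is not given in the sources used here. All 12 libraries entered one fit in edgeR 4.0.16 (R 4.3.3), with filterByExpr, TMM factors, 4 group coefficients and the quasi-likelihood test, adjusted by Benjamini-Hochberg over 18822 genes. Each standard error is the absolute log2 fold change over the square root of F, an approximation. The 95% intervals multiply it by a normal quantile, and are therefore narrower than the quasi-likelihood test would give. The steps were tested on simulated data with large planted changes and a spread common to all genes. That test does not show how they do at smaller changes. Deviations from the group means of same-numbered KO and KO+ZnO NPs libraries correlated at 0.395, 0.13 and 0.143. These values depend on each other and are a hint of pairing only, which no label states. Replicate 1 of both groups held Y-linked transcripts. Alternatives were DESeq2 1.42.0, other scalings, filters and groups fitted, a replicate block, a sex term, a fold change of 1.5 as the null and each library left out. Positions, exon lengths and overlaps come from GENCODE M21 and promoter windows from RefSeq.

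The members and all gene lists were chosen with earlier results of these data known. Values in every library are given for members called in a comparison and among its 8 largest log2 fold changes, and for Cldn1, Ocln, Tjp1, Cdh1, Cdh3, Ctnnb1, Pard3 and Prkci. Of each other list, the 3 largest called genes of each comparison are named. Results of 2 genes of the wider polarity list that this rule would name are not reported here.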

Additional observations from a re-analysis of the deposited data

Results flagged for a closer look

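For 6 of the 36 members tested, the difference of KO+ZnO NPs from KO was not the same as that of WT+ZnO NPs from WT, by the interaction test of edgeR with adjustment over all genes. Of the 36, 5.56% were called upward and 11.1% downward, against 5.08% and 3.59% of all genes, so the upward share was at the background. The Cdc42 transcript in whole skin does not bear out the label WT+ZnO NPs, with 311 to 350.1 CPM there and 415 to 464 in KO. The reason was not tested, and the group names are used as labels only. Upward, Cldn15 had an interaction log2 fold change of 2.869 (edgeR adjusted p = 0.0228) and Cldn5 of 2.319 (edgeR adjusted p = 0.0347). Downward, it was -2.726 for Cdh3 (edgeR adjusted p = 0.00466), -1.977 for Cldn10 (edgeR adjusted p = 0.0362), -1.222 for Marveld2 (edgeR adjusted p = 0.0428) and -0.749 for Ctnnd1 (edgeR adjusted p = 0.045). In each of the 4 that went downward the mean in vehicle-treated KO skin was above that of WT, a difference called for Cdh3 and Cldn10 alone, and the WT+ZnO NPs mean was the highest of the 4 groups. The interaction is computed from the levels of these same 4 groups, so this pattern is not a separate result. For Cdh3 the means were 13.1 CPM in WT, 54.6 in KO, 138 in WT+ZnO NPs and 86.6 in KO+ZnO NPs. The Y-linked transcripts, present in all WT+ZnO NPs and no WT libraries, enter the same contrast, and with a sex term 0 of the 6 calls were kept. The values with that term were 3.46 for Cldn15, 1.51 for Cldn5, -2.33 for Cdh3, -1.74 for Cldn10, -0.82 for Marveld2 and -0.70 for Ctnnd1, and the part of sex was not tested beyond them. Without KO+ZnO NPs replicate 2 the Cldn5 value was 1.513.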

How the results depend on the processing

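The 36 called results of single members were recomputed under 23 alternatives (21 for the interaction), 813 values in all, fewer where an alternative dropped the gene. Of these 594 kept the call, 219 lost it and 0 changed direction. All alternatives kept the call in 5 results: Cdh3 in KO and, in WT+ZnO NPs, Cdh3, Cldn10, Cldn15 and Ctnnd1. In KO against WT, where 4 members were called, DESeq2 on all libraries called 7, DESeq2 on the groups compared 12, edgeR on the groups compared 9, a test against a fold change of 1.5 called 1, the sex term left 2, and leaving out the KO and KO+ZnO NPs libraries with Y-linked transcripts, chosen after seeing the data, left 1. Leaving out single libraries gave 1 to 7. In WT+ZnO NPs against WT, with 22 called, the test against 1.5 called 9 and the sex term left 5, and leaving out single libraries gave 12 to 26. In KO+ZnO NPs against KO, with 3 called, DESeq2 on all libraries called 5, edgeR on the groups compared 0 (5 members had an unadjusted p below 0.05), the test against 1.5 called 0 (4 unadjusted), and single libraries gave 0 to 5. Between the ZnO NP groups, with 1 called, library size alone called 2, DESeq2 on all libraries 3 and on the groups compared 2, a minimum of 10 counts 2, and edgeR on the groups compared, the test against 1.5, the sex term and leaving out the libraries with Y-linked transcripts 0 each (5, 2, 8 and 10 members unadjusted), and single libraries gave 0 to 3. In the interaction, with 6 called, the test against 1.5 called 1, the sex term 0 (8 members unadjusted), leaving out the libraries with Y-linked transcripts 2, and single libraries 1 to 6. Without a filter on low counts, the calls of Cldn12, Llgl2, Marveld3, Pard3 and Prkcz in WT+ZnO NPs against WT were lost. So were those of Marveld2 and Ctnnd1 in the interaction and of Cldn10 in KO+ZnO NPs against KO. The cause of these shifts was not tested. Other junction and polarity genes called ranged over the alternatives from 1 to 31 (11 in the test reported) in KO, 14 to 43 (37) in WT+ZnO NPs, 0 to 11 (5) in KO+ZnO NPs against KO, 0 to 11 (1) between the ZnO NP groups and 0 to 20 (13) in the interaction. With library size alone the median of all genes in WT+ZnO NPs against WT was 0.163 on the log2 scale, against 0.0563 with TMM factors, and it was -0.112 between the ZnO NP groups and -0.129 in the interaction.

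All 3 correlations of same-numbered libraries were over 0.1 for KO with KO+ZnO NPs, and for no other 2 groups. Of 18 such pairs 8 were over 0.1, in a range of -0.394 to 0.395, and 9 of 12 libraries correlated best with their own number, a hint from the data only. With the replicate number as a block, 3 members were called in KO against WT, 23 in WT+ZnO NPs against WT, 2 in KO+ZnO NPs against KO, 1 between the ZnO NP groups and 5 in the interaction. The block ended the calls of Cldn10 in KO against WT, in KO+ZnO NPs against KO and in the interaction, and of Ctnnd1 in the interaction, and no other call of a single member.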
